A study of Mus musculus with 30 samples.

Results

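The genes described here are 38 regulators of chromatin and transcription whose human counterparts are mutated in autism or intellectual disability. They were chosen by symbol, by a rule that uses no measured value, but with earlier results of these data known. All 38 were found among the 18240 genes of the table. Messenger RNA was measured by bulk RNA sequencing in the prefrontal cortex of C57BL/6J mice of both sexes at 40 days of age. HT mice, heterozygous for Adnp, received fluoxetine, a serotonin reuptake inhibitor (4 female and 4 male libraries), lithium, a mood stabilizer (3 and 4), or vehicle (4 and 3). WT mice with both Adnp copies received vehicle (4 and 4). Every drug-treated animal was HT, so neither drug could be compared within WT. The sources used here give neither the Adnp allele nor the dose or duration of each drug, and do not state whether each library came from a separate animal. The p-values therefore measure the spread between libraries, which may be technical.

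Proteins of this kind set and read the chemical marks on histones and DNA, move nucleosomes, or bind regulatory DNA and recruit RNA polymerase. Loss of a single copy is enough to cause a developmental disorder for many of them, and most act both before birth, when cortical neurons form, and in mature neurons. Adnp encodes a homeodomain protein of the same kind, which binds DNA and heterochromatin protein HP1 and works with the CHD remodeller Chd4. The question the design poses for these genes is whether loss of 1 Adnp copy, or drug treatment on that background, goes with a different level of other risk genes of the same class.

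Values are normalized read counts, that is, the reads of a gene divided by 1 scale factor per library, from libraries of 23771758 to 34307061 reads. The symbol Adnp had 1887 to 2491 normalized counts in the 22 HT libraries and 1703 to 2228 in the 8 WT libraries, but it shares exonic sequence with the annotated gene Gm20716. Their sum was 3404 to 3887 in HT and 4226 to 4434 in WT libraries, so it separated the genotype labels in all 30 libraries. The 10 markers of cortical excitatory neurons summed to 140190 to 220741 in all libraries, with none at 0, as the tissue label states. Markers of neighbouring regions were also present and uneven. The 10 striatal neuron markers summed to 6340 to 48516 and the 8 markers of olfactory bulb and neuroblasts to 1692 to 18833 per library. These sums are given again beside the genes that moved with them.

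Most of the risk genes were abundant transcripts of the cortex. Their median mean level was 2809.9 normalized counts, against 499.5 for the 16824 genes that passed the filter on low values (a mean of at least 10), and all 38 passed it. Foxp2, at a mean of 361, lay below that median of all genes. Per kb of exonic sequence the median was 225.5 normalized counts, against 113.8 for all genes tested. Foxp2, Asxl3, Phip, Auts2, Kdm5b and Kmt5b were below 113.8 per kb. Their genes are long, with a median of 106.8 kb against 22.04 kb, and so are their exonic sequences, with 14.16 kb against 4.173 kb. The spread between libraries of a group was a median SD of 0.0894 on the log2 scale, against 0.134 for all genes tested. Only 3 of the 38 share exonic bases on the same strand with another gene of the table. Chd2 shares 18.4% of its exonic bases with 1810026B05Rik, which makes its count uncertain, while Foxp1 shares 2.18% and Ehmt1 0.259%. A further 9 share bases with a gene on the opposite strand, at most 9.6% for Tlk2. The libraries were made with a stranded kit, but how strand entered the counting is not given in the sources used here.

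**Figure D1:**
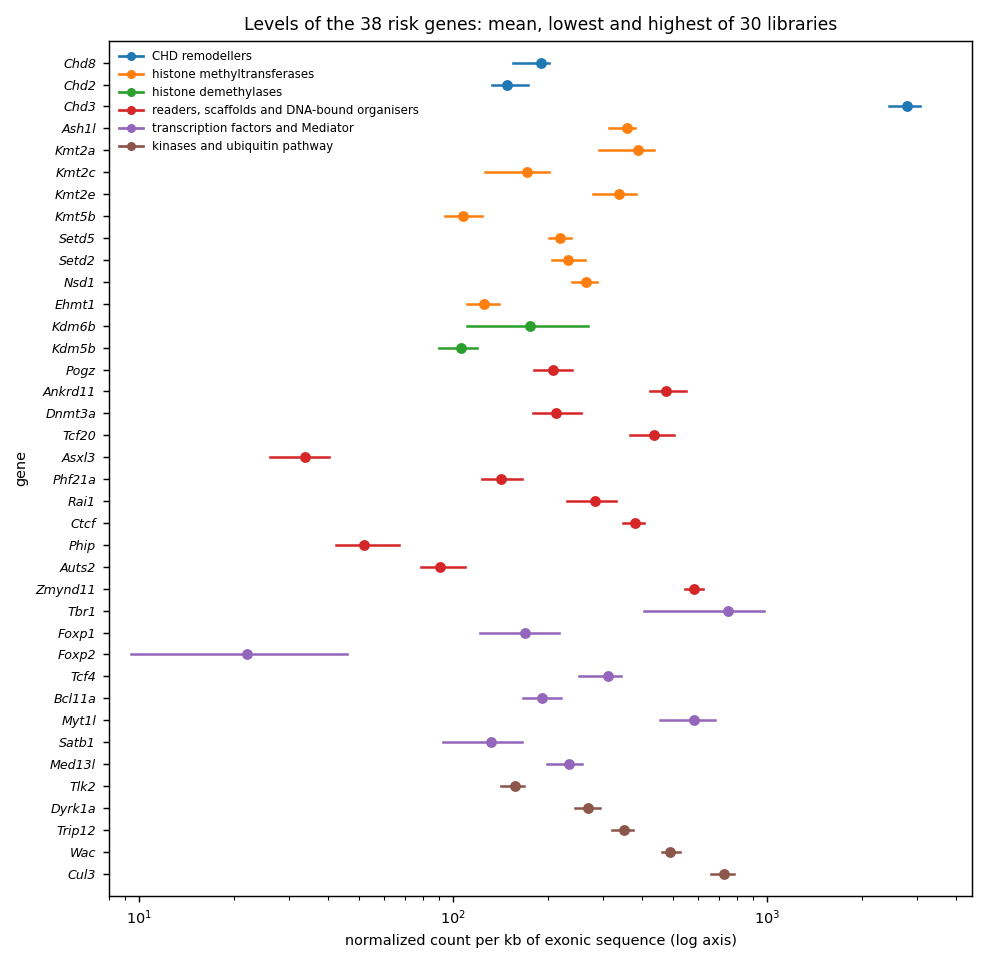
Normalized count per kb of exonic sequence (log axis) for each of the 38 genes, coloured by role; points are means over the 30 libraries and lines run from the lowest to the highest library. Chd3 stands highest at 2793 and Foxp2 lowest at 22.1, and Foxp2 also has the longest line.

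Of the 3 CHD remodellers, which use ATP to move nucleosomes, Chd3 of the NuRD complex was the highest of all 38 at 2793 normalized counts per kb. Chd8, one of the genes most often mutated in autism, stood at 191 and Chd2, linked to epilepsy, at 149. The 9 histone methyltransferases ranged from 107 to 386 normalized counts per kb. Kmt2a and Kmt2c (171) write the methyl mark of active promoters and enhancers, and Kmt2e (338) is a related reader of it. Ash1l (358), Nsd1 (264) and Setd2 (232) methylate histone H3 along transcribed or active genes, and Setd5 (219) is a further SET-domain protein. Ehmt1 (126) writes a repressive mark on histone H3 and Kmt5b (107) methylates histone H4. The 2 demethylases were Kdm6b, which removes the Polycomb mark, at 176 and Kdm5b, which removes the mark of active promoters, at 106 normalized counts per kb.

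The 11 readers, scaffolds and DNA-bound organisers had from 33.8 to 583 normalized counts per kb. Zmynd11, a reader of the mark of transcribed genes, was the highest and Asxl3, a partner of the Polycomb deubiquitinase Bap1, the lowest. Ankrd11, a co-regulator that recruits histone deacetylases, stood at 477, Tcf20 at 436 and its relative Rai1, the dosage-sensitive gene of Smith-Magenis syndrome, at 284. Ctcf, the insulator protein, had 379.6, the DNA methyltransferase Dnmt3a 212 and Pogz, which like the Adnp protein binds HP1, 208 normalized counts per kb. Phf21a, a histone reader of the LSD1 complex, was at 142, Auts2, of a Polycomb complex, at 90.6 and the bromodomain protein Phip at 52.1.

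Among the 7 transcription factors and the Mediator subunit Med13l, the order per kb ran from Tbr1, which specifies deep-layer cortical neurons (750.1), over Myt1l, a repressor of non-neuronal genes (584), to Foxp2, the forkhead factor linked to speech (22.1). Between them lay Tcf4, the Pitt-Hopkins syndrome gene (310.0), Med13l (233), Bcl11a, a zinc finger factor of BAF complexes (191), Foxp1 (169) and the chromatin organiser Satb1 (132). The 5 kinases and ubiquitin pathway members ranged from Tlk2, a kinase of chromatin assembly (157), to the ubiquitin ligase scaffold Cul3 (730.3). The kinase Dyrk1a had 269, the ubiquitin ligase Trip12 350.3 and Wac, which is needed for ubiquitination of histone H2B, 489.8 normalized counts per kb.

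Kmt2a and Kmt2c had the 2 largest fold changes under fluoxetine and the widest spread of the methyltransferases, so the DNA just upstream of their start sites is shown. Neither fold change was called. Both lie on the minus strand of mouse build GRCm38.p6, Kmt2a at chr9:44881290-44881539 and Kmt2c at chr5:25498784-25499033. The 250 bases before each start, from RefSeq, run 5′ to 3′ on the gene's strand, and capitals mark the GC box letters GGGCGG on either strand.
Kmt2a: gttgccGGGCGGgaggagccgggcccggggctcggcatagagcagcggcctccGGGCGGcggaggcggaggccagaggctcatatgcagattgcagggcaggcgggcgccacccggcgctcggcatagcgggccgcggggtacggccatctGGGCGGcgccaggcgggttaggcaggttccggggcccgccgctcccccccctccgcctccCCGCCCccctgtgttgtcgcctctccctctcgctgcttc
Kmt2c: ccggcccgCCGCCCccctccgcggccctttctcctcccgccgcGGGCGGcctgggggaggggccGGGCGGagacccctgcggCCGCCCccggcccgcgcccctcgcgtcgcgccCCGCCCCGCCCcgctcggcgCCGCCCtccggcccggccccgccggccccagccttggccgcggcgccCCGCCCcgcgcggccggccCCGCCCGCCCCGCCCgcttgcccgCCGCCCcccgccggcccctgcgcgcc
The Kmt2a window holds 4 GC boxes and 29 CpG dinucleotides, and the Kmt2c window 12 GC boxes, counting overlaps, and 48 CpG. The median of all 32851 windows is 6 CpG, and 32.7% of them hold at least 1 GC box. The letters TGACGTCA, a cyclic AMP response element, are in neither window, and in 1.55% of all windows. Windows were found for 27 of the 38 genes, with 11 unmatched. Of the 47 windows of these 27 genes 31 hold a GC box, from 25 genes, so GC boxes are not particular to Kmt2a and Kmt2c. A comparison of base composition over the whole set is void, since fewer than 80% of the genes have a window.

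Between HT vehicle and WT vehicle mice none of the 38 risk genes passed the test. Limma, edgeR and DESeq2 each called 0 at an adjusted p under 0.05, where limma called 0.731% of all genes tested, edgeR 0.731% and DESeq2 0.856%. At an unadjusted p under 0.05 there were also 0 of 38 by each tool, against 6.6% of all genes by limma. Of the log2 fold changes 21 were positive and 17 negative, with a median of 0.0052, beside 49.3% positive and a median of -0.0010 over all genes. In bulk tissue, fewer cells that express a gene and less RNA per cell cannot be told apart.

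The intervals were narrow. The 95% interval of the fold change lay within 1.2-fold in either direction for 34 of the 38 genes, and for 61.8% of all genes tested. The exceptions were Satb1 (-0.31 to 0.04 on the log2 scale), Kdm6b (-0.17 to 0.35), Tbr1 (-0.43 to 0.22) and Foxp2 (-0.62 to 0.82). By role, the histone methyltransferases had 7 positive and 2 negative log2 fold changes, from -0.03 to 0.07. The CHD remodellers had 2 and 1, from -0.0025 to 0.04, and the kinases and ubiquitin pathway 2 and 3, from -0.05 to 0.04. The readers, scaffolds and organisers had 4 and 7, with a median of -0.0088. Chd8, Pogz and Dyrk1a, 3 of the best known genes of the set, had log2 fold changes of -0.0025, -0.01 and 0.0032. The Dyrk1a value averages -0.06 in females (SE 0.0423) and 0.07 in males (SE 0.0457), neither of them called. Chd8 averaged 3161 ± 61.8 (SD, n = 7) in the HT vehicle libraries and 3168 ± 137 (SD, n = 8) in WT vehicle libraries. Pogz averaged 1922 ± 139.9 (SD, n = 7) in the HT vehicle libraries and 1934 ± 141 (SD, n = 8) in WT vehicle libraries.

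**Figure D2:**
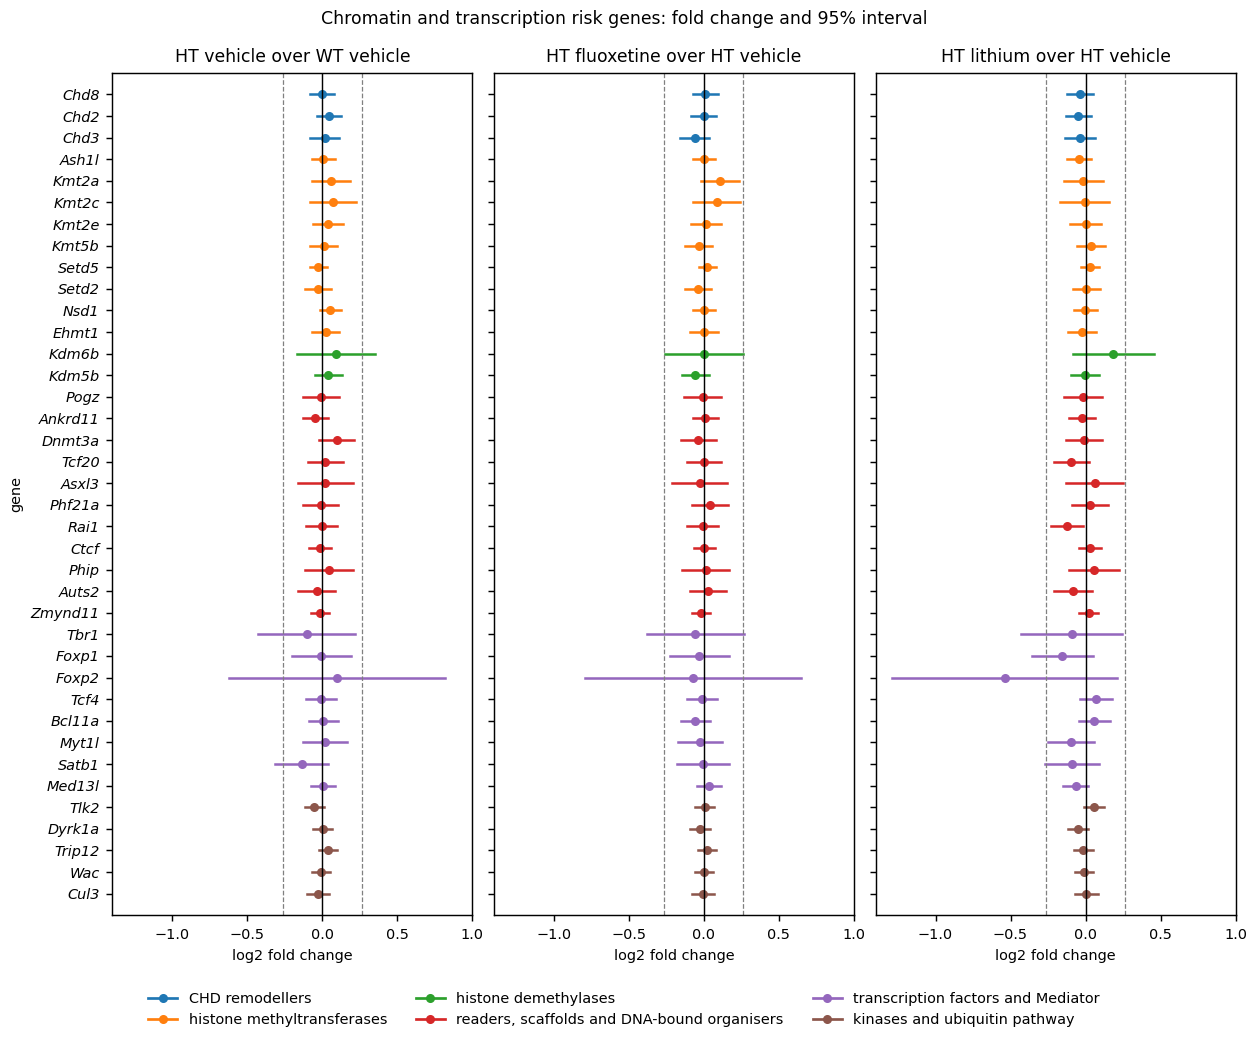
Log2 fold change (point) with its 95% interval (line) for each of the 38 genes, for HT vehicle over WT vehicle, HT fluoxetine over HT vehicle and HT lithium over HT vehicle; dashed lines mark 1.2-fold. Most intervals lie inside the dashed lines in each panel, and Foxp2 has the widest one.

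The 3 genes higher in HT vehicle with the smallest p were Dnmt3a, Nsd1 and Trip12. Dnmt3a (chromosome 12, 3806007 to 3914443, plus strand, GRCm38), which writes new DNA methylation and is active in postnatal neurons, had 4172, 3359, 3337 and 3739 in HT vehicle females and 3584, 3641 and 3517 in HT vehicle males, against 3195, 3713, 3159.5 and 3229 in WT vehicle females and 3669.7, 2988, 3567 and 3553 in WT vehicle males. The 2 highest HT libraries lay above all WT libraries, and the others overlapped. On the log2 scale the difference was 0.10 (standard error 0.0567, limma adjusted p = 0.889). Nsd1 (chromosome 13, 55209782 to 55318325, plus strand), the methyltransferase of Sotos syndrome, had 4918, 4676, 4670.2 and 4558 in HT vehicle females and 4664, 4761 and 4393 in HT vehicle males, against 4504, 4673, 4402 and 4414 in WT vehicle females and 4780.0, 4198, 4419.7 and 4509 in WT vehicle males. Its groups overlapped too, at a log2 fold change of 0.05 (SE 0.0351, limma adjusted p = 0.928). Trip12 (chromosome 1, 84721189 to 84840516, minus strand) had 5786, 5989.7, 5896 and 5800.1 in HT vehicle females and 5833, 5939.6 and 5682 in HT vehicle males, against 5864, 5789, 5676 and 5639.9 in WT vehicle females and 5614, 5595, 5599 and 5739 in WT vehicle males. HT libraries stood on the high side within an overlapping range, with a log2 fold change of 0.04 (SE 0.0291, limma adjusted p = 0.947).

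The 3 lower genes with the smallest p were Tlk2, Satb1 and Ankrd11. Tlk2 (chromosome 11, 105178807 to 105283959, plus strand) had 1269, 1239, 1328 and 1147 in HT vehicle females and 1228, 1263 and 1218 in HT vehicle males, against 1302, 1298, 1235 and 1332 in WT vehicle females and 1289, 1306, 1247 and 1285 in WT vehicle males. The lowest library was HT vehicle female 4, and 1 HT library also came near the top of the WT range. On the log2 scale the difference was -0.05 (standard error 0.0302, limma adjusted p = 0.88), the smallest p of the 38. Satb1 (chromosome 17, 51736187 to 51833290, minus strand) had 2073, 2913, 2588 and 2325 in HT vehicle females and 2541, 2524 and 2376 in HT vehicle males, against 2829, 2429, 3139.9 and 2681 in WT vehicle females and 2453, 3037, 2628 and 2616 in WT vehicle males. Both ends of the HT range lay below those of the WT range, with most libraries in common territory (log2 fold change -0.14, SE 0.0844, limma adjusted p = 0.91). Ankrd11 (chromosome 8, 122883822 to 123042277, minus strand) had 7604, 8144, 8002 and 7845 in HT vehicle females and 8138, 7569.8 and 7652 in HT vehicle males, against 7491, 7780.4, 8196 and 8245 in WT vehicle females and 8289, 7629, 9168 and 8065 in WT vehicle males. WT vehicle male 3 was the highest library and the rest overlapped (log2 fold change -0.05, SE 0.0416, limma adjusted p = 0.95).

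**Figure D3:**
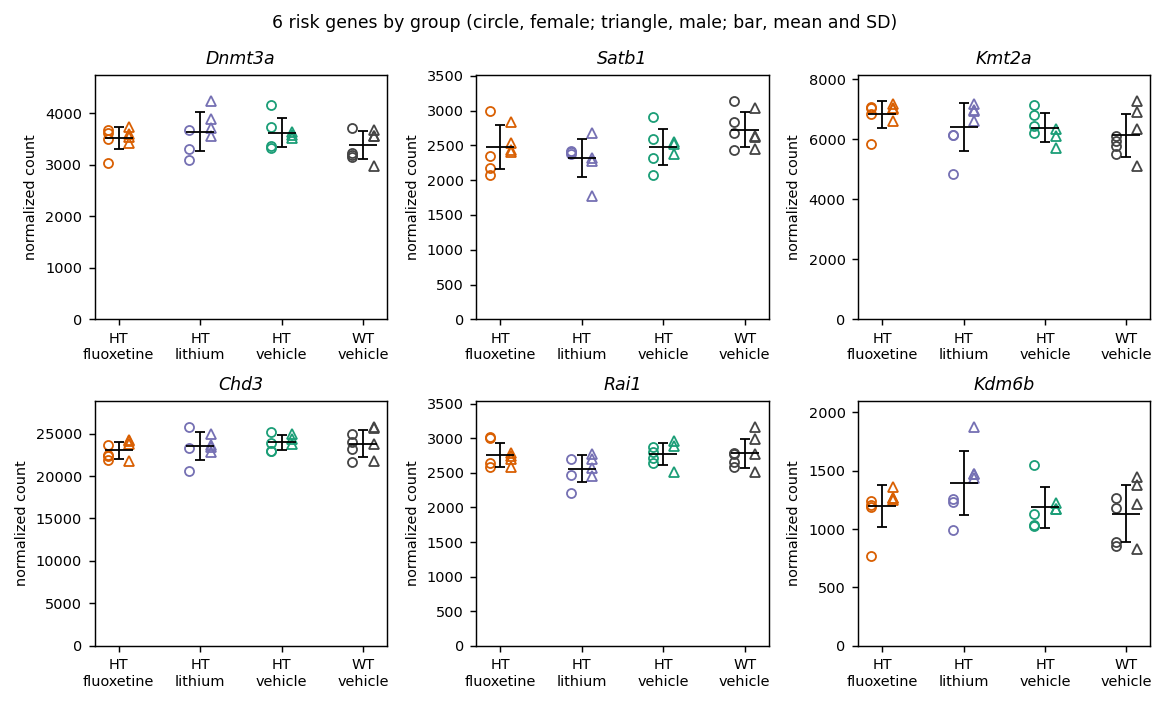
Normalized counts of 6 risk genes in each library (circles female, triangles male) by group, with the mean and SD as bars and the vertical axis starting at 0. In each of the 6 panels the ranges of the 4 groups overlap.

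Under fluoxetine in HT mice none of the 38 passed the test against HT vehicle. Limma, edgeR and DESeq2 called 0 of the 38 genes, where limma called 0.0357% of all genes, edgeR 0.0297% and DESeq2 0.0714%, and 0 of 38 had an unadjusted p under 0.05 by any of the 3. Positive log2 fold changes numbered 18 and negative ones 20 (median -0.0012, against -0.0016 over all genes). The 95% interval lay within 1.2-fold for 36 of the 38, and for 64.7% of all genes tested. The exceptions were Tbr1 (-0.38 to 0.26 on the log2 scale) and Foxp2 (-0.79 to 0.65). Of the transcription factors and Mediator 7 of 8 were negative, down to -0.07 for Foxp2, and of the methyltransferases 6 of 9 positive. The HT vehicle libraries also enter the genotype comparison, so the fold changes of both comparisons share them.

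Kmt2a, the mixed-lineage leukaemia methyltransferase (chromosome 9, 44803355 to 44881296, minus strand), had 6831, 7031, 5839 and 7073 in HT fluoxetine females and 7047, 6605, 7168 and 7023 in HT fluoxetine males, against 7139, 6196, 6437 and 6808 in HT vehicle females and 6341, 5723 and 6098 in HT vehicle males. Of the 8 fluoxetine libraries 6 exceeded every vehicle library but female 1, and the ranges overlapped. On the log2 scale the difference was 0.11 (standard error 0.062, limma adjusted p = 1, unadjusted 0.101). Kmt2c (chromosome 5, 25271798 to 25498783, minus strand), its relative at enhancers, had 3767, 3916, 3008 and 3688 in HT fluoxetine females and 3497, 3630.1, 3784 and 3992 in HT fluoxetine males, against 4105, 3437, 3377 and 3645 in HT vehicle females and 3153, 3419 and 3208 in HT vehicle males. The highest value was in vehicle and the lowest under fluoxetine (log2 fold change 0.09, SE 0.0757, limma adjusted p = 1). Med13l, of the Mediator kinase module (chromosome 5, 118560679 to 118765438, plus strand), had 3610.1, 3590.5, 3867 and 3464 in HT fluoxetine females and 3595, 3696, 3954 and 3740.4 in HT fluoxetine males, against 3626, 3688, 3944 and 3585 in HT vehicle females and 3551, 3552 and 3372 in HT vehicle males. The ranges were nearly the same (log2 fold change 0.04, SE 0.0387, limma adjusted p = 1).

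On the lower side, Chd3 (chromosome 11, 69343273 to 69369406, minus strand) had 21859, 22526, 22325 and 23702 in HT fluoxetine females and 21756, 24216, 23765 and 24098 in HT fluoxetine males, against 25175, 23869, 22943 and 22974 in HT vehicle females and 24938, 23726 and 24337 in HT vehicle males. The lowest 4 libraries were fluoxetine libraries, in an overlapping range (log2 fold change -0.06, SE 0.046, limma adjusted p = 1). Kdm5b (chromosome 1, 134560171 to 134635285, plus strand) had 1713, 1816, 1489.7 and 1717 in HT fluoxetine females and 1631, 1769.7, 1888 and 1764 in HT fluoxetine males, against 1973, 1689, 1767 and 1665 in HT vehicle females and 1793, 1888 and 1749.5 in HT vehicle males. Fluoxetine female 3 was the lowest library and vehicle female 1 the highest (log2 fold change -0.06, SE 0.0428, limma adjusted p = 1). Bcl11a (chromosome 11, 24078056 to 24174123, plus strand) had 2476, 2463, 2196 and 2307 in HT fluoxetine females and 2255, 2512, 2611 and 2578 in HT fluoxetine males, against 2898, 2532, 2439.7 and 2404 in HT vehicle females and 2546, 2550.1 and 2331 in HT vehicle males. Here too vehicle female 1 stood highest and fluoxetine female 3 lowest (log2 fold change -0.06, SE 0.0475, limma adjusted p = 1).

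Under lithium in HT mice none of the 38 passed the threshold against HT vehicle. The count was 0 by limma, edgeR and DESeq2, where 0.0892%, 0.0892% and 0.113% of all genes were called, and 1 gene, Rai1, had an unadjusted p under 0.05 by each tool, against 5.72% of all genes by limma. There were 14 positive and 24 negative log2 fold changes, with a median of -0.01, beside 47.8% positive over all genes. The 95% interval lay within 1.2-fold for 33 of the 38 and for 60.4% of all genes. Exceptions were Foxp1 (-0.36 to 0.05 on the log2 scale), Foxp2 (-1.29 to 0.21), Satb1 (-0.27 to 0.09), Tbr1 (-0.43 to 0.24) and Kdm6b (-0.08 to 0.46). The CHD remodellers were all 3 negative, from -0.05 to -0.04, and of the transcription factors and Mediator 6 of 8 were negative with a median of -0.09. The methyltransferases had 4 positive and 5 negative, all between -0.04 and 0.03.

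Marker genes of neighbouring regions also differed in sign between lithium and vehicle libraries, with overlapping sums. Striatal neuron markers summed to 6534 to 19385 under lithium and 6897 to 30603 under vehicle. Olfactory bulb markers summed to 2336 to 18833 under lithium and 1968 to 17317 under vehicle. All 10 striatal markers had negative and all 8 bulb markers positive log2 fold changes (medians of -0.70 and 1.17), with 0 called by limma. The part of these marker differences in the fold changes was not tested beyond the fit that follows. With both marker scores as covariates, Foxp2 had a log2 fold change of -0.13 in place of -0.54, Foxp1 -0.02 in place of -0.16, Tcf4 0.01 in place of 0.07 and Tcf20 -0.03 in place of -0.09. Rai1 had -0.08 in place of -0.13 and Kdm6b 0.12 in place of 0.19. Their standard errors in this fit, 0.0381 and 0.0472, were smaller than those of the main fit given below. Their limma unadjusted p-values with the covariates were 0.0369 and 0.0193, at an adjusted p of 0.9995 for both. Markers leaned one way for genotype and fluoxetine too, with 0 of those named here called by limma. For genotype all 10 striatal markers were positive (median 0.30) and all 10 cortical excitatory markers negative (-0.09). For fluoxetine all 10 striatal markers were negative (-0.22). Bulb markers were mixed, with 6 and 5 of 8 positive. With the marker covariates the log2 fold change for genotype was -0.09 for Satb1 and 0.06 for Dnmt3a (limma unadjusted p = 0.117 and 0.103). For fluoxetine it was 0.11 for Kmt2a (SE 0.0447, limma unadjusted p = 0.0197, adjusted p = 0.9997).

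Rai1 (chromosome 11, 60105013 to 60199197, plus strand) had 2213, 2707 and 2475 in HT lithium females and 2701, 2778, 2454 and 2573 in HT lithium males, against 2805, 2716, 2644 and 2876 in HT vehicle females and 2896, 2509 and 2956 in HT vehicle males. Lithium female 1 was the lowest of all, 3 of the 7 lithium libraries lay below the vehicle range, and the other 4 lay inside it. It averaged 2557 ± 195 (SD, n = 7) under lithium and 2772 ± 158 (SD, n = 7) under vehicle, a log2 fold change of -0.13 (SE 0.0525, limma unadjusted p = 0.0244, adjusted p = 0.858). Med13l had 3061, 3671 and 3406 in HT lithium females and 3779, 3574, 3514 and 3190.2 in HT lithium males, beside the vehicle values given above, and its 2 lowest libraries were lithium female 1 and male 4 (log2 fold change -0.07, SE 0.0401, limma adjusted p = 0.879). Tcf20 (chromosome 15, 82808436 to 82987872, minus strand), the relative of Rai1, had 3277, 3709.8 and 3524 in HT lithium females and 3486, 3540.3, 3410.2 and 3008 in HT lithium males, against 3402, 3758, 3423 and 3862 in HT vehicle females and 3917, 3458 and 3759.9 in HT vehicle males. The lowest 2 were lithium libraries and the highest 4 vehicle libraries (log2 fold change -0.09, SE 0.058, limma adjusted p = 0.879).

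Tlk2, on the higher side, had 1359.5, 1292 and 1264 in HT lithium females and 1303, 1272, 1255 and 1268 in HT lithium males, beside the vehicle values given above. The highest library was lithium female 1 and the lowest a vehicle library, in overlapping ranges (log2 fold change 0.06, SE 0.0313, limma adjusted p = 0.879). Kdm6b (chromosome 11, 69398508 to 69413675, minus strand) had 1262, 989 and 1233 in HT lithium females and 1472, 1441, 1471 and 1875 in HT lithium males, against 1549, 1029, 1031 and 1132 in HT vehicle females and 1223, 1174 and 1168 in HT vehicle males. The lithium males all lay above the vehicle males, but lithium female 2 was the lowest library of both groups (log2 fold change 0.19, SE 0.131, limma adjusted p = 0.879). The share of all genes that separate the males in this way was not computed. Tcf4 had 8323, 8129.8 and 8996 in HT lithium females and 9161, 8969, 9369.5 and 8872 in HT lithium males, against 9146, 8663, 9057 and 7599 in HT vehicle females and 8007, 8938 and 7556 in HT vehicle males. The 3 lowest values were vehicle libraries and the highest a lithium library (log2 fold change 0.07, SE 0.0509, limma adjusted p = 0.879).

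Drug-treated HT mice were also set against WT vehicle mice, which asks whether HT animals under a drug differ from WT animals under vehicle. In fluoxetine-treated HT mice 0 of the 38 were called by any tool, where limma called 1.49% of all genes, edgeR 1.51% and DESeq2 1.97%. Kmt2a and Kmt2c had an unadjusted p under 0.05, 2 of 38 beside 12.1% of all genes, and the median log2 fold change was -0.0065. Kmt2a averaged 6827 ± 436 (SD, n = 8) in fluoxetine-treated HT libraries and 6128 ± 716 (SD, n = 8) in WT vehicle libraries. Its values ranged over 5839 to 7168 and 5107 to 7283, with a log2 fold change of 0.16 (SE 0.0595, limma adjusted p = 0.241). Kmt2c differed by 0.16 on that scale (SE 0.0727, limma adjusted p = 0.386). The WT libraries and, through HT, the genotype difference are shared with the comparisons above.

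In lithium-treated HT mice 0 of the 38 were called by any tool, where limma called 1.97% of all genes, edgeR 1.92% and DESeq2 2.91%. An unadjusted p under 0.05 was found for 3 of 38 by limma, beside 17.7% of all genes. They were Satb1, Rai1 and Kdm6b. Satb1 averaged 2322 ± 275 (SD, n = 7) in lithium-treated HT and 2727 ± 258 (SD, n = 8) in WT vehicle libraries (ranges 1770.0 to 2678 and 2429 to 3139.9). On the log2 scale the difference was -0.23 (standard error 0.0844, limma adjusted p = 0.162), the smallest p of the 38 in this comparison. With the marker covariates Satb1 had -0.15 (SE 0.056, limma adjusted p = 0.197). Rai1 differed by -0.13 on the log2 scale, at a limma adjusted p of 0.189, and Kdm6b by 0.27, at 0.256. With the marker covariates Rai1 had -0.10 (SE 0.0375, limma adjusted p = 0.172) and Kdm6b 0.12 (SE 0.0464, limma adjusted p = 0.251).

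Auts2, chosen here after its values were seen, was the only risk gene called under any of the settings tried, and only in this comparison. It had 2043, 1841 and 1970.4 in HT lithium females and 2079, 1915, 1896 and 1926 in HT lithium males, against 2009, 2145, 1938 and 2154 in WT vehicle females and 2353, 1825, 2501 and 2107 in WT vehicle males. Every lithium library lay inside the WT range. It averaged 1953 ± 83.9 (SD, n = 7) in lithium-treated HT and 2129 ± 218 (SD, n = 8) in WT vehicle libraries. On the log2 scale the difference was -0.12 (standard error 0.0594, limma adjusted p = 0.293), and after adding both regional marker scores as covariates it was -0.17 (SE 0.043, limma adjusted p = 0.0322). The share of all genes called in that fit is not given here, so the call is not shown to be particular to the risk genes.

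Between the drugs, fluoxetine over lithium in HT mice, 22 log2 fold changes were positive and 16 negative, and limma and edgeR called 0 of the 38, as they called 0% of all genes. DESeq2 called 0 of the 38 and 0.0773% of all genes. Med13l (log2 fold change 0.10, SE 0.0387, limma adjusted p = 0.645), Bcl11a (-0.12, SE 0.0475, 0.669) and Rai1 (0.12, SE 0.0506, 0.687) had an unadjusted p under 0.05, 3 of 38 beside 6.86% of all genes. Rai1 averaged 2759 ± 173 (SD, n = 8) under fluoxetine and 2557 ± 195 (SD, n = 7) under lithium. Med13l averaged 3689.7 ± 160.3 (SD, n = 8) under fluoxetine and 3456 ± 257 (SD, n = 7) under lithium. Bcl11a averaged 2425 ± 153 (SD, n = 8) under fluoxetine and 2627 ± 139 (SD, n = 7) under lithium.

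The difference between the sexes in each effect, male minus female, was tested as an interaction. Limma and edgeR called 0 of the 38 and 0% of all genes for genotype, fluoxetine and lithium, and DESeq2 called 0 of the 38 in each, beside 0%, 0.00595% and 0% of all genes. The signs leaned one way. For fluoxetine 31 of 38 interactions were positive and for lithium 28, beside 49.8% and 49.9% of all genes, while for genotype 10 were positive and 28 negative, beside 51.0% positive of all genes. The 121 related genes outside the set, described at the end, leaned the same way, with 88 positive for fluoxetine, 88 for lithium and 34 for genotype, so the lean is not shown to be particular to the 38. The same HT vehicle libraries enter all 3, with opposite sign for genotype, so these counts are not separate evidence. With each library left out in turn the positive count ran from 25 to 32 for fluoxetine, from 25 to 32 for lithium and from 8 to 16 for genotype. At an unadjusted p under 0.05 limma found 2, 3 and 4 of 38 for genotype, fluoxetine and lithium, beside 2.05%, 5.96% and 10.01% of all genes.

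Kmt2a had the smallest p of the sex differences for lithium. Its log2 fold change over HT vehicle was 0.20 in males and -0.22 in females, a difference of 0.42 (SE 0.129, limma unadjusted p = 0.0030, adjusted p = 0.47). Its values were 4858, 6136 and 6144 in HT lithium females and 6957, 6610.4, 6973 and 7173 in HT lithium males, beside the vehicle values given above. The 4 lithium males all lay above the 3 vehicle males, while lithium female 1 was the lowest of all 30 libraries. How many of all genes separate these males was not computed. Without lithium female 1 the unadjusted p was 0.0214 and the median interaction of the 38 genes was 0.03, in place of 0.08. Kmt5b (0.25, limma adjusted p = 0.47), Phip (0.43, 0.472) and Nsd1 (0.17, 0.481) also had positive log2 differences. With the marker scores as covariates these were 0.19 for Kmt5b, 0.26 for Phip and 0.15 for Nsd1 (limma adjusted p = 0.7257, 0.7285 and 0.7285). For Kmt2a the difference was then 0.46 (SE 0.0979, limma unadjusted p = 5.0e-05, adjusted p = 0.23), which was not called.

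Libraries of the same treatment, genotype and sex differed among themselves, and in some libraries most of the genes lay on one side. HT fluoxetine female 3 was below its group mean for 33 of the 38 genes, where 50.7% of all genes tested were below. WT vehicle male 2 and HT fluoxetine male 1 were below for 31 each (all genes 50.6% and 49.2%). On the other side, HT fluoxetine male 3 was above for 31 and HT vehicle male 1 for 30, where 47.7% and 48.7% of all genes were below. HT lithium female 1 was the lowest of all 30 libraries for 14 of the 38 genes, among them Kmt2a, Kmt2c and Rai1. HT lithium male 4 was the lowest for 5 and the highest for 8. The share of all genes lowest or highest in these libraries was not computed. Many of the 38 genes also moved together, with r over 0.5 in 181 of 703 pairs after group means were removed. Other pairs moved in opposite directions, down to r of -0.892 for Foxp2 and Tcf4 and -0.805 for Phf21a and Satb1. The share of such pairs among all genes was not computed, so this is not shown to be particular to the 38. Counts of genes in 1 library are therefore not separate observations.

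**Figure D4:**
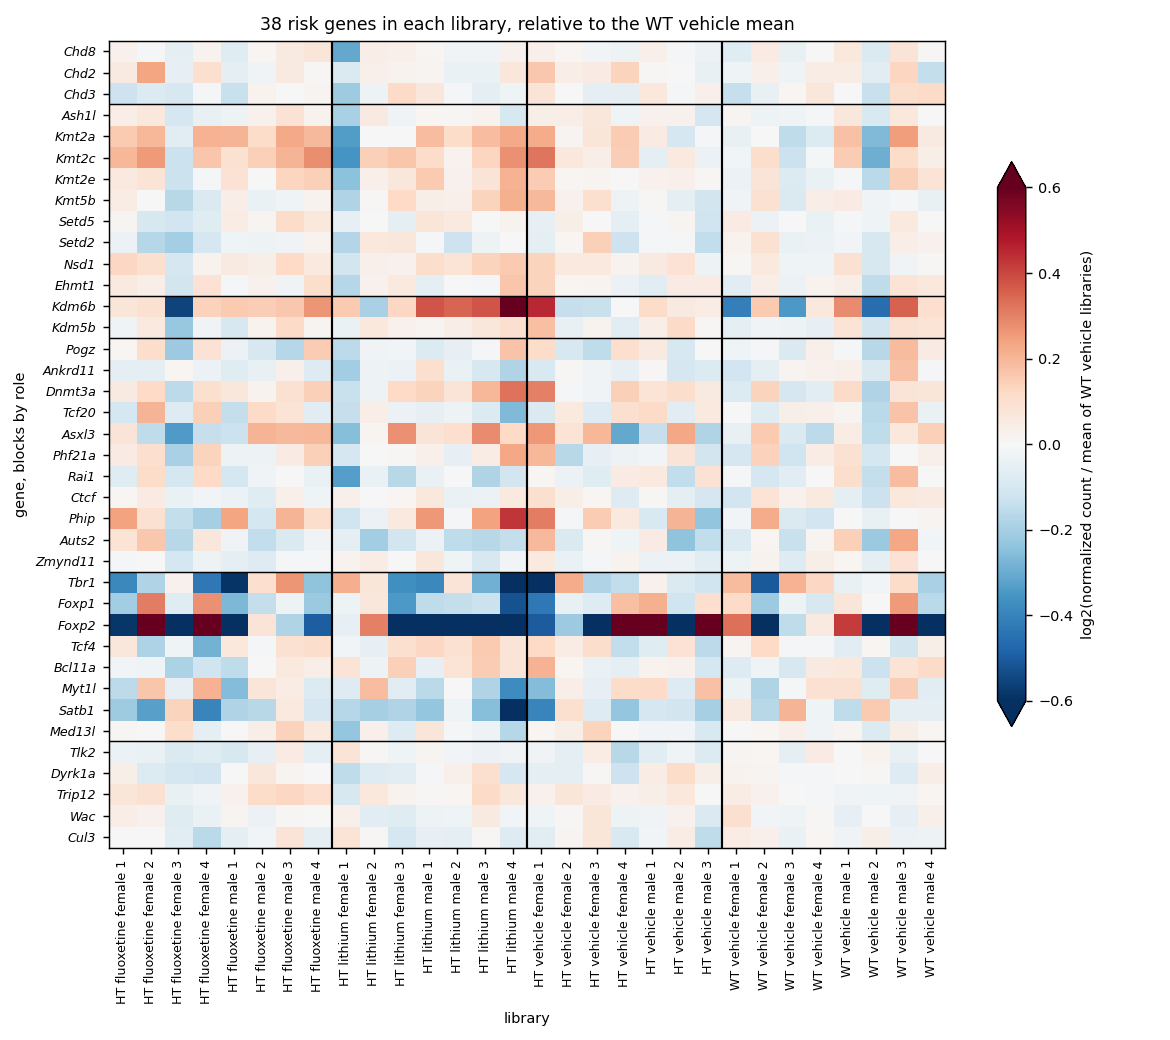
Log2 ratio of each of the 38 genes (rows, blocks by role) in each of the 30 libraries (columns, HT fluoxetine, HT lithium, HT vehicle, then WT vehicle) to the mean of the WT vehicle libraries; the colour scale ends at 0.6 in either direction. Single columns such as HT lithium female 1 stand out across several rows, and Foxp2 reaches an end of the scale in each of the 4 groups.

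Some risk genes followed the marker sums of neighbouring regions from library to library. Group means were removed from both log2 values, and 76 relations over the 30 libraries were tested by permutation within groups (100000 resamples, Benjamini-Hochberg adjusted over the 76). A relation counted where Pearson's r and Spearman's rho both had an adjusted p under 0.05. For the striatal sum 6 of 38 passed, 5 positive and 1 negative, and for the olfactory bulb sum 17 of 38, 12 positive and 5 negative. The share of all genes that would pass was not computed, so these counts are not shown to be particular to the 38. In all, 18 genes passed for either, 5 for both and 20 for neither. Each of those 5 had opposite signs for the striatal and the bulb sum. Libraries with the highest striatal sums had low bulb sums, as in HT fluoxetine female 4 (48516 and 2024). Those with the highest bulb sums had low striatal sums, as in HT lithium male 4 (18833 and 6534). Some, such as HT fluoxetine female 3, were low in both. The striatal and bulb relations are therefore not shown to be separate. No cell type was measured apart here, and the part of tissue composition in these relations was not tested.

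Foxp2 and Tcf4 followed the striatal sum most closely. Foxp2, present in striatal neurons and deep cortical layers, had r of 0.949 and rho of 0.946 (adjusted permutation p = 0.000253 and 0.00057, with r at 0.939 without the 2 libraries farthest from the median). Its values were 247, 751, 232 and 737 in HT fluoxetine females and 213, 391, 327 and 263 in HT fluoxetine males, 358, 457 and 206 in HT lithium females and 154, 220.0, 193 and 238 in HT lithium males, 262, 318, 156 and 673 in HT vehicle females and 629, 225 and 618 in HT vehicle males and 465, 202, 333 and 384 in WT vehicle females and 495, 227, 621 and 235 in WT vehicle males. The highest library had 4.89 times the count of the lowest, and the ranges of the 4 groups overlapped. Tcf4, a helix-loop-helix factor of cortical neurons, ran the other way, with r of -0.924 and rho of -0.909 (adjusted permutation p = 0.000253 and 0.000507, r at -0.898 without the 2 farthest). The other 4 were positive. They were Foxp1 (r 0.804), Myt1l (0.777), Tcf20 (0.770) and Rai1 (0.769), with adjusted permutation p-values of 0.000304, 0.000507, 0.00076 and 0.00152.

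With the olfactory bulb sum, Foxp1 (r -0.826, rho -0.690), Myt1l (-0.765, -0.700) and Tbr1 (-0.739, -0.675) were the most negative, at adjusted permutation p-values of r of 0.000253, 0.000304 and 0.0011. Without the 2 farthest libraries r was -0.763, -0.695 and -0.726. Tbr1 had 3392, 3919, 4525 and 3298 in HT fluoxetine females and 2953, 4758, 5338 and 3757 in HT fluoxetine males, 5158, 4676 and 3439 in HT lithium females and 3391, 4677, 3634 and 2229 in HT lithium males, 2909, 5181, 3914 and 4002 in HT vehicle females and 4519, 4178 and 4082 in HT vehicle males and 5071, 3131, 5122 and 4831 in WT vehicle females and 4299, 4384, 4793 and 3885 in WT vehicle males. The lowest was HT lithium male 4, the library with the highest bulb sum, and HT vehicle female 1, the next highest in bulb sum, was the lowest of its group. Foxp1 had 2085, 2980.2, 2294 and 2918 in HT fluoxetine females and 1998, 2182, 2361 and 2068 in HT fluoxetine males, 2357, 2523 and 1900.4 in HT lithium females and 2168, 2183, 2202 and 1678 in HT lithium males, 1789, 2337, 2283 and 2731 in HT vehicle females and 2792, 2216 and 2585 in HT vehicle males and 2613, 2072, 2359 and 2258 in WT vehicle females and 2535, 2417, 2875 and 2157 in WT vehicle males. Its lowest 2 were the same libraries, HT lithium male 4 and HT vehicle female 1. Phip (r 0.738), Kmt5b (0.675) and Phf21a (0.639) were among the positive ones. Foxp1, Foxp2 and Tbr1 were chosen after their values were seen.

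**Figure D5:**
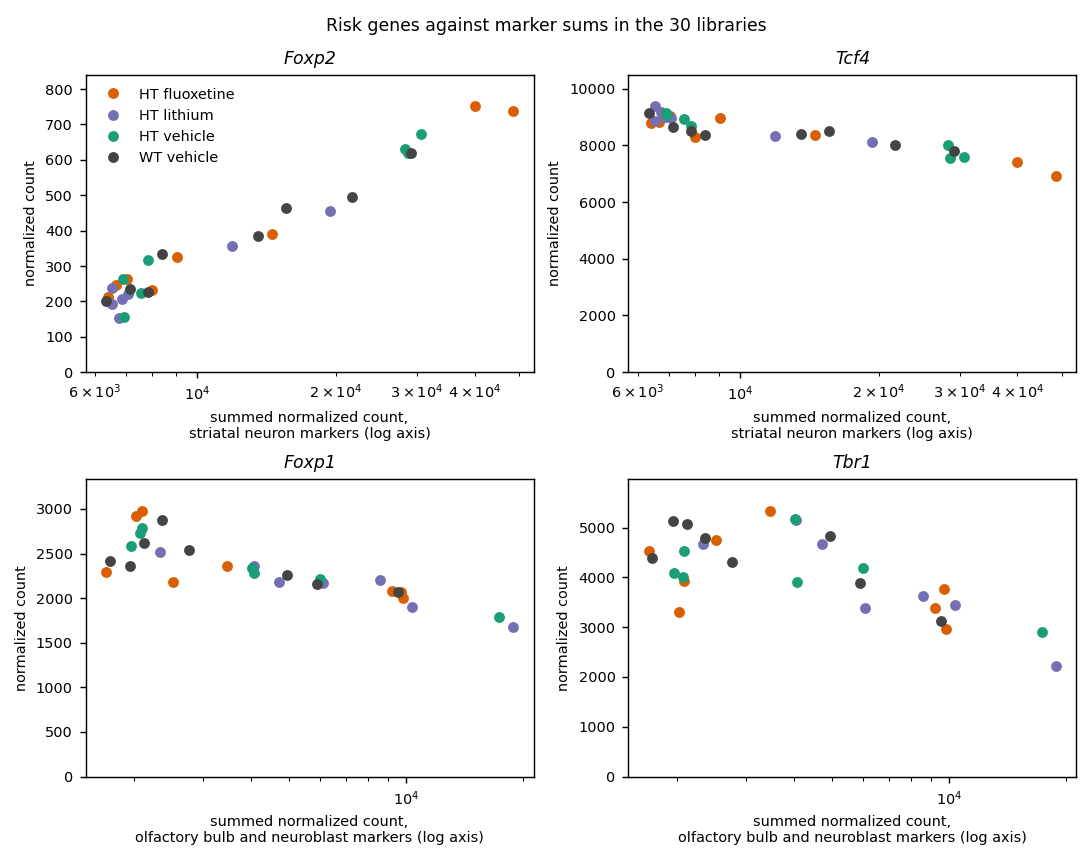
Normalized counts of Foxp2 and Tcf4 against the summed striatal neuron markers, and of Foxp1 and Tbr1 against the summed olfactory bulb and neuroblast markers (log horizontal axes), 1 point per library coloured by group. Foxp2 is higher and Tcf4 lower at high striatal sums in libraries of all 4 groups, while Foxp1 and Tbr1 are low in the libraries with the highest bulb sums.

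Related genes outside the set were counted in 6 lists of 121 genes, all tested. They covered other CHD remodellers (7), other histone lysine methyltransferases (21), other histone demethylases (17), histone acetyltransferases and deacetylases (19), other chromatin and DNA-methylation risk genes (31) and other transcription factor and Mediator risk genes (26). Limma and edgeR called 0 of the 121 in each of the 9 comparisons. At an unadjusted p under 0.05 limma found 4 of 121 for genotype (6.6% of all genes), 4 for fluoxetine (2.63%) and 1 for lithium (5.72%). It found 19 for fluoxetine-treated HT against WT vehicle (12.1%), 11 for lithium-treated HT against WT vehicle (17.7%) and 6 between the drugs (6.86%). For the sex differences it found 2 for genotype (2.05%), 7 for fluoxetine (5.96%) and 16 for lithium (10.01%). DESeq2 called Jmjd1c, a demethylase-family gene, in fluoxetine-treated HT against WT vehicle (log2 fold change 0.16, DESeq2 adjusted p = 0.0399, limma 0.0702). In lithium-treated HT against WT vehicle it called Prdm16, of the PRDM family of methyltransferase-like factors (0.29, DESeq2 adjusted p = 0.0457, limma 0.0679), and Kansl1, a scaffold of a histone acetyltransferase complex (-0.08, DESeq2 adjusted p = 0.0419, limma 0.116). Prdm16 averaged 392 ± 23.3 in lithium-treated HT libraries (SD, n = 7) and 322 ± 48.2 in WT vehicle libraries (SD, n = 8). It averaged 391 ± 53.3 in HT vehicle (SD, n = 7) and 392 ± 59.6 in HT fluoxetine libraries (SD, n = 8). The difference from WT vehicle was therefore of like size in each HT group. Chd4, the remodeller that works with the Adnp protein, was chosen after its values were seen. It averaged 6314 ± 246.5 in the HT vehicle libraries (SD, n = 7) and 5719 ± 441 in WT vehicle libraries (SD, n = 8). On the log2 scale it differed by 0.15 (standard error 0.0431, limma adjusted p = 0.155).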

How the data were processed

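RNA was extracted from prefrontal cortex and sequenced from stranded mRNA libraries, all from 1 batch label. The submitters' processing notes name Salmon 0.11.2, R 3.6.0, DESeq2 1.19.11 and the build GRCm38, without their roles. The deposited values are a signal, gene counts that the authors divided by 1 scale factor per library. Whole reads came back for 100% of values within 0.01, which gave the depth of 23771758 to 34307061 reads. Symbols were matched for 18227 of 18240 gene identifiers.

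The main test was limma 3.58.1 (trend, robust; R 4.3.3) on log2(normalized count + 1), with all 30 libraries in 1 fit of 8 groups by treatment, genotype and sex, 22 residual degrees of freedom, and a mean of at least 10. Effects were averaged over the sexes. Fold changes are on that log2 scale. P-values were adjusted by Benjamini-Hochberg over all 16824 genes, with a call at 0.05. edgeR 4.0.16 and DESeq2 1.42.0 were run on the recovered reads. The script was tested on simulated data. Replicates differed beyond sampling noise (chi-square per degree of freedom of 4.79 to 31.9 over 42 pairs).

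The 38 genes, the related lists and the marker lists were chosen with earlier results of these data known. Values in every library are given for the 3 higher and the 3 lower genes with the smallest unadjusted p for genotype, fluoxetine and lithium. Other settings tried were pseudocount 10, no filter, a mean of at least 50, TMM factors, the compared groups alone, marker scores as covariates, the replicate number as a block and each library left out.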

Additional observations from a re-analysis of the deposited data

Results flagged for a closer look

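A library was singled out where its gap to the nearest other library of the same sex and treatment exceeded 0.829 of the group's range. Groups of 4 libraries were tested for the named genes and marker sums, 126 tests in all, of which 12 met this limit. For a single test on independent normal values chance gives about 1 in 20. The tests share libraries, and some genes were chosen after their values were seen, so 12 of 126 is not shown to exceed that rate.

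Of the demethylase Kdm6b, HT fluoxetine female 3 had 769 normalized counts beside 1190 to 1245 in the other females of that group. HT fluoxetine male 4 had 1362 beside 1253 to 1268, and HT lithium male 4 had 1875 beside 1441 to 1472. Dnmt3a had 3713 in WT vehicle female 2, beside 3160 to 3229 in the other WT females, and 2988 in WT vehicle male 2, beside 3553 to 3670 in the other WT males. WT vehicle male 2 was also low for Kdm5b, with 1614 beside 1842 to 1853.

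Among the transcription factors, Foxp1 had 1678 in HT lithium male 4, beside 2168 to 2202 in the other males of its group, and Tbr1 had 3131 in WT vehicle female 2, beside 4831 to 5122. Trip12 had 5739 in WT vehicle male 4, beside 5595 to 5614. The summed striatal markers reached 30603 in HT vehicle female 4, beside 6897 to 7833. The summed olfactory bulb markers reached 9204 in HT fluoxetine female 1, beside 1692 to 2090, and 17317 in HT vehicle female 1, beside 2071 to 4074.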

How the results depend on the processing

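None of the 38 risk genes was called in any of the 9 comparisons under any setting tried, with the exception of 1 gene, Auts2, in lithium-treated HT against WT vehicle mice with the marker scores as covariates. With each library left out in turn 0 were called throughout, at a lowest limma adjusted p of 0.0695. Of the log2 fold changes of named genes recomputed under other settings, that of Tbr1 under lithium (-0.09) changed sign, to 0.045 with marker covariates and, with single libraries left out, ranged from -0.17 without HT lithium male 2 to 0.0069 without HT lithium male 4. Single libraries also moved other log2 fold changes, none of them called, by over 1.5 times. For genotype Dnmt3a had 0.063 without WT vehicle male 2 or HT vehicle female 1, Tlk2 -0.033 without HT vehicle female 4 and Ankrd11 -0.021 without WT vehicle male 3. Under fluoxetine Med13l had 0.020 to 0.023 without HT fluoxetine female 3 or male 3 or HT vehicle male 3. Kdm5b had -0.028 without HT fluoxetine female 3 and -0.031 without HT vehicle female 1, and Bcl11a -0.033 without HT fluoxetine male 1 and -0.027 without HT vehicle female 1. Under lithium HT vehicle female 4 left out gave Tlk2 0.037, Tcf4 0.040 and Foxp2 -0.35, and HT vehicle male 3 gave Tcf4 0.042. Med13l had -0.031 without HT lithium female 1 and -0.043 without HT lithium male 4, and Foxp1 -0.095 without HT lithium female 3. The positive count of the 38 moved with single libraries. It ran from 14 to 24 for genotype (14 without WT vehicle male 2, 24 without HT vehicle female 2), from 11 to 25 for fluoxetine (11 without HT fluoxetine female 2, 25 without HT fluoxetine male 1) and from 10 to 24 for lithium (10 without HT lithium female 3, 24 without HT lithium female 1). Counts over all genes moved more, and the cause was not tested. With marker covariates they were 247 for genotype, 11 for fluoxetine, 490 for fluoxetine-treated HT against WT vehicle and 10 between the drugs. A mean of at least 50 gave 68 for genotype and 165 for fluoxetine-treated HT against WT vehicle, with fewer genes tested. The compared groups alone gave 11 for fluoxetine, 5 for lithium and 208 for lithium-treated HT against WT vehicle. DESeq2 gave 12 for fluoxetine, 13 between the drugs and 1 for the sex difference under fluoxetine. With single libraries left out the counts ran from 3 to 7 for fluoxetine, 8 to 16 for lithium, 196 to 503 for lithium-treated HT against WT vehicle, 0 to 4 between the drugs and 0 to 2 for the sex difference under lithium. The replicate number as a block gave 0 of the 38 in every comparison and 128, 7, 13, 239 and 301 genes in all for genotype, fluoxetine, lithium, and fluoxetine- and lithium-treated HT against WT vehicle. All same-numbered correlations exceeded 0.1 in 1 of 12 pairs of groups (-0.43 to 0.446). In HT lithium females some replicate numbers differ from those in the library names. The block and this check therefore cannot decide whether the libraries were paired. Leaving out both libraries with the highest bulb sums, a choice made after seeing the data, called 0 of the 38. The lowest mean level of the 38 stood at percentile 43.6 of all genes tested, and the effect of depth on these tests was not tested.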
